A study of Saccharomyces cerevisiae with 36 samples.

Results

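The genes described here encode the transcription machinery of RNA polymerase I (Pol I) and RNA polymerase III (Pol III) of budding yeast. They were chosen by name, as the probe sets whose gene symbol in the array annotation is that of a subunit or a basal factor of either enzyme, with the brightest probe set kept for each gene. All 42 genes sought were measured, each by a single probe set, out of 5449 genes with a symbol on the array. By role they were 7 subunits found only in Pol I, 10 found only in Pol III, 2 shared by Pol I and Pol III, 5 shared by all nuclear RNA polymerases, 8 factors of Pol I and 10 factors of Pol III. Together the polymerases accounted for 24 subunits and the factors for 18 genes.

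Pol I transcribes only the ribosomal DNA repeats and makes the precursor of the large ribosomal RNAs. Pol III makes transfer RNAs, the smallest ribosomal RNA and other short RNAs. Growing yeast spend a large part of their transcription on these products, and genes of ribosome production are known to be repressed when nutrients run out. The mRNAs measured here are themselves made by Pol II, and neither the enzymes' activity nor their protein levels was measured.

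All strains were haploid MATa yeast of the W303a background with a deletion of BAR1 and with ura3, leu2, his3, trp1, ade2 and can1 mutations. WT carried no further mutation, eco1-W216G carried a mutant allele of ECO1, which encodes the acetyltransferase that modifies the cohesin ring, and scc2-D730V carried a mutant allele of SCC2, a subunit of the cohesin loader. In both mutants a hygromycin resistance marker, which WT lacked, accompanied the allele, and each genotype was represented by 1 strain. Cultures in exponential growth at 30 °C in YPD with added amino acids (0 min) were moved to minimal medium without amino acids and sampled at 15, 35 and 55 min, with 3 arrays for each of the 12 groups. Each strain was grown as 3 independent cultures, and arrays of a strain that share a number may come from the same culture over time, so p-values measure the spread between these arrays.

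The deposited intensities were put on a log2 scale, and all values below are log2 intensities or differences of them unless a fold change is named. The 36 array medians lay between 10.95 and 11.14. ECO1 was lower by 3.28 (SE 0.24) in eco1-W216G than in WT at 0 min, and the probe set of BAR1 stayed between 4.44 and 4.89 on all arrays, near the bottom of the scale. STE2, the pheromone receptor of MATa cells, lay between 13.49 and 14.47. A change in the total RNA of a cell is not visible in values normalized to the same distribution, and less RNA in every cell cannot be told apart from fewer cells that express a gene. A set of 14 of the 42 members had a mean signal in the lowest 25% of all probe sets, among them RPA43, RPC31, RPC17 and RRN11.

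No detection call was used, so genes that MATa cells keep silent served as a gauge of dim signal, chosen after the values were seen. On the WT arrays at 15 min MF(ALPHA)1 lay between 5.01 and 5.43, MF(ALPHA)2 between 6.77 and 7.33, and STE3 between 7.47 and 7.98, with a mean of 7.75. The WT means of 9 members at 15 min, RPA43, RPA49, RPC17, RPC25, RPC31, RPC37, RPC53, RRN11 and UAF30, were no higher than that of STE3. For these members log2 differences that involve WT at 15 min are given as measured, folds are given as bounds against the STE3 mean, and their order among the strongest changes is not established.

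Arrays of the same group did not spread at random among the subunits. In scc2-D730V, replicate 1 gave the highest value of the 3 arrays for 19 of 24 subunits at 15 min, for 24 at 35 min and for 24 at 55 min. It was the highest for 40.2%, 28% and 28.8% of all probe sets at these times. In WT, replicate 2 gave the lowest value for 18 of 24 subunits at 35 min and for 21 at 55 min (30.1% and 34.5% of all probe sets). Replicate 1 of WT gave the highest value for 22 of 24 subunits at 35 min and for 22 at 55 min (31.4% and 39.5% of all probe sets). In eco1-W216G, replicate 2 gave the lowest value for 23 of 24 subunits at 15 min, and replicate 3 did so for 23 at 0 min (32.8% and 42.6% of all probe sets). Results that depend on these arrays are given with and without them.

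The first question was how far the machinery was repressed when WT cells lost amino acids. All 24 subunits fell within 15 min, from 3.31-fold for RPA14 to at least 41.6-fold for RPA49. Among the factors, those of Pol I mostly fell and those of Pol III mostly did not. In all, 34 of the 42 members fell and 4 rose (limma, Benjamini-Hochberg adjusted p under 0.05 over 5763 probe sets), where 36.4% of all probe sets fell and 37% rose. The 3 arrays at 15 min lay entirely below those at 0 min for 35 members and entirely above for 4, compared with 38% and 39.2% of all probe sets.

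Medians of the classes differed, with wide ranges inside them. At 15 min the median change was -4.93 for the 7 subunits of Pol I alone, -3.39 for the 10 of Pol III alone, -3.73 for the pair shared by Pol I and Pol III, and -2.31 for the 5 shared by all polymerases. The median of all probe sets was 0.02. The 7 subunits that belong to Pol II alone had a median of -0.53, from -1.0 for RPB9 to 0.37 for RPB4, and 4 of them fell. Of 19 general factors of Pol II, 7 fell and 1 rose, with a median of -0.09. Single members crossed this order, since RPA14 of Pol I changed less (-1.73) than every subunit of all polymerases, and RPC31 of Pol III changed by -5.21. These groups share arrays and a fit, and the differences between their medians were not tested. The members no higher than STE3 in WT at 15 min include RPA43 and RPA49 of Pol I. They also include RPC17, RPC25, RPC31, RPC37 and RPC53 of Pol III, whose class median averaged 7.95 beside 7.75 for STE3. The order of the Pol I and Pol III medians is therefore not established.

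**Figure D1:**
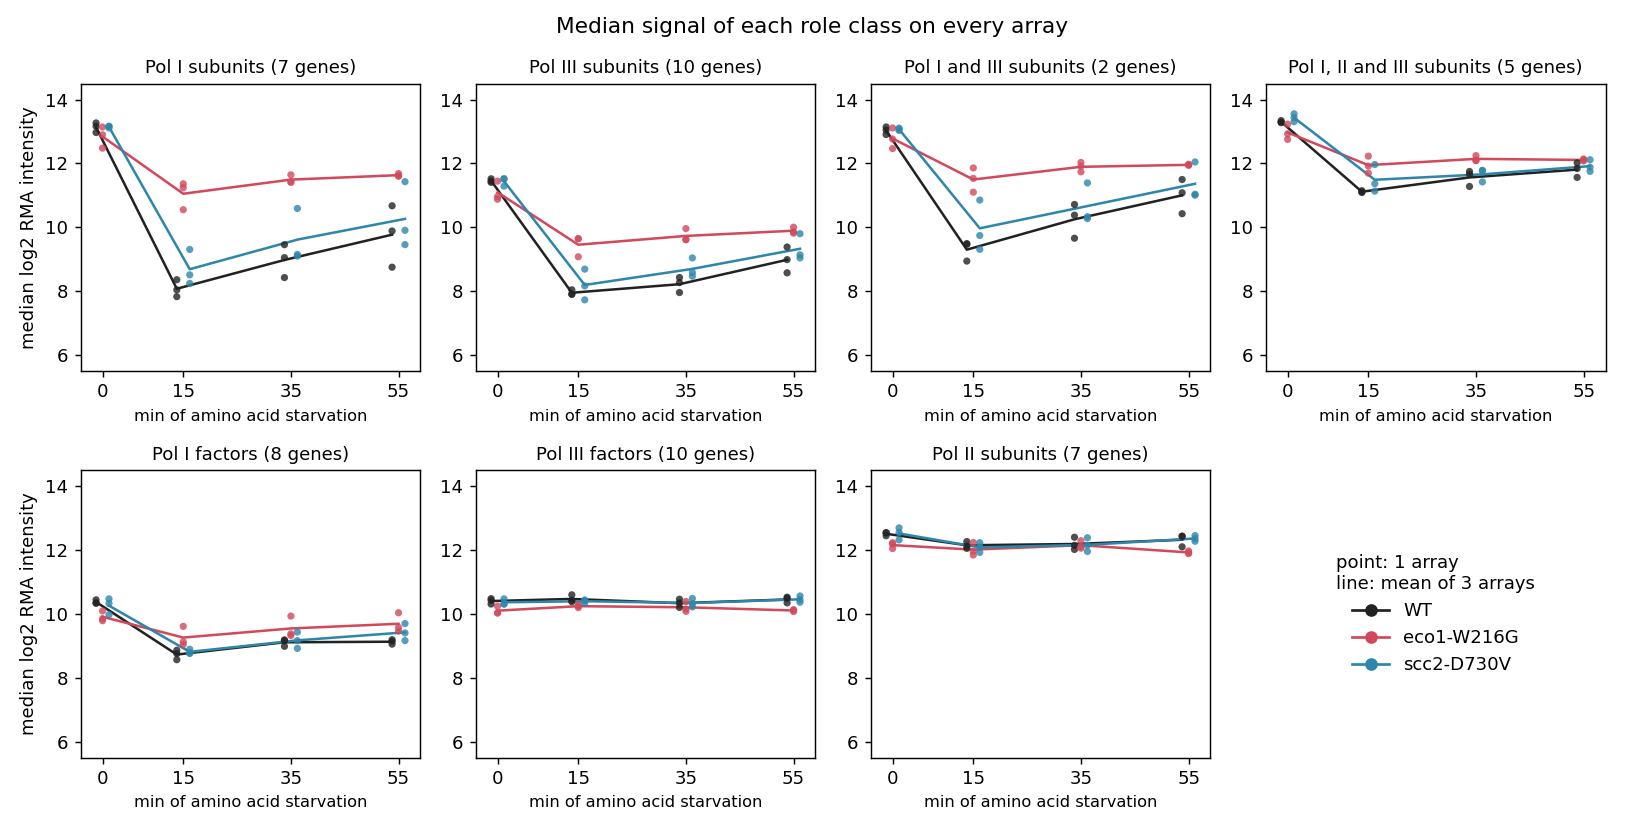
Median log2 intensity of the genes of each role class (vertical axis) against minutes of amino acid starvation (horizontal axis) in the 3 strains. Each point is 1 array and each line joins the means of 3 arrays, and in WT the median of the Pol I subunits fell from 13.16, 13.27 and 12.97 to 8.04, 7.82 and 8.35 within 15 min, while the lines of the Pol III factors and Pol II subunits stay nearly flat.

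Among the subunits of Pol I, RPA49 and RPA43 had the lowest measured values of the log2 change. RPA49, which forms a dimer with RPA34 that helps the enzyme to start and to elongate, measured 13.16, 13.27 and 12.95 in WT at 0 min and 7.57, 7.79 and 7.88 at 15 min. The groups lay far apart and did not overlap, and the fall was at least 41.6-fold (log2 change -5.38, SE 0.53, adjusted p = 4.63e-10). RPA43, which with RPA14 makes the stalk that binds the initiation factor Rrn3, went from 11.66, 11.73 and 11.49 to 6.64, 5.66 and 6.28, at least 14.7-fold (log2 change -5.44, SE 0.53, adjusted p = 4.3e-10). Its stalk partner RPA14 had the smallest fall of the 24 subunits, from 13.22, 13.35 and 12.97 to 11.29, 11.58 and 11.50 (log2 change -1.73, SE 0.19). The other members of this class lay close to RPA49. RPA12, which takes part in RNA cleavage, had a log2 change of -5.24, and RPA34 one of -4.93. RPA190 and RPA135, the large subunits of the catalytic centre, changed by -4.87 and -4.42.

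Of the Pol III subunits, RPC31 had the lowest measured log2 change. RPC31 belongs to the subcomplex with RPC82 and RPC34 that is needed for initiation, and measured 11.14, 11.34 and 11.26 in WT at 0 min and 6.50, 5.54 and 6.08 at 15 min. The groups did not overlap, and the fall was at least 11.3-fold (log2 change -5.21, SE 0.37, adjusted p = 8.49e-13). Its partners RPC34 and RPC82 changed by -3.70 and -3.29. RPC53 and RPC37, which act together in termination, changed by -4.49 and -3.04, and the stalk subunits RPC25 and RPC17 by -4.10 and -3.49. RPO31 and RET1, the large catalytic subunits, changed by -3.29 and -2.79. RPC11, the subunit that cleaves RNA, fell least, from 12.35, 12.31 and 12.16 to 10.30, 9.96 and 10 (log2 change -2.19, SE 0.24).

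RPC19 and RPC40 form the assembly platform shared by Pol I and Pol III. RPC19 went from 12.93, 12.99 and 12.70 to 8.80, 8.36 and 8.79 in WT (log2 change -4.23, SE 0.43), and RPC40 from 13.16, 13.29 and 13.11 to 10.17, 9.52 and 10.14 (log2 change -3.24, SE 0.29). Both pairs of groups were separate. The 5 subunits common to all polymerases fell less, with log2 changes of -1.80 for RPB10, -2.03 for RPB8, -2.31 for RPB5, -2.50 for RPO26 and -2.56 for RPC10, and all 5 passed the test. RPB10, a small zinc-binding subunit, went from 13.29, 13.34 and 13.28 to 11.55, 11.66 and 11.31.

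The factors of Pol I changed unequally, also within a complex. RRN3, which binds Pol I and makes it competent to initiate, went in WT from 11.42, 11.25 and 11.10 to 9.17, 8.71 and 8.90 (log2 change -2.33, SE 0.26, adjusted p = 3.66e-09). The 3 subunits of the core factor, which bridges Pol I and the promoter, all fell, but unequally. RRN11 fell from 10.59, 10.51 and 11.03 to 6.08, 6.37 and 7.01, at least 7.78-fold (log2 change -4.22, SE 0.53), and the changes of RRN6 and RRN7 were -1.72 and -1.56. Of the upstream activating factor, which binds further from the start site, UAF30, RRN5 and RRN9 fell (log2 changes -1.88, -0.58 and -0.49), while RRN10 rose by 0.49 (SE 0.17, adjusted p = 0.0106). Without WT replicate 2 or 3 the change of RRN9 missed the threshold, with adjusted p = 0.0601 and 0.18.

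The factors of Pol III had no common direction. Of the 6 subunits of TFIIIC, which recognizes the promoters within tRNA genes, TFC7 rose by 0.78 and TFC3 by 0.61, TFC4 fell by 0.48, and TFC1, TFC6 and TFC8, with changes between -0.33 and 0.24, did not pass the test. In TFIIIB, which recruits the polymerase, BRF1 fell by 0.43, and BDP1 changed by -0.27 without passing. PZF1, the zinc finger protein TFIIIA that is specific to the gene of the smallest ribosomal RNA, fell from 9.53, 9.85 and 9.96 to 9.02, 8.58 and 8.77 (log2 change -0.99, SE 0.18). MAF1, the repressor of Pol III, moved against the subunits. It rose from 11.81, 11.75 and 11.68 to 12.43, 12.58 and 12.18, without overlap (log2 change 0.65, SE 0.15, adjusted p = 0.000411).

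Only 2 pairs of members are neighbouring genes in the RefSeq annotation (assembly R64), and the letters that end their locus tags mark opposite strands. RPA43 (YOR340C) and RPA190 (YOR341W) both fell strongly in WT (log2 changes -5.44 and -4.87). PZF1 (YPR186C) and RPO26 (YPR187W), a subunit of all polymerases, fell unequally (log2 changes -0.99 and -2.50), and the difference within the pair was not tested.

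The fall was deepest at 15 min for 23 of the 24 subunits in WT, RPA190 being lowest at 35 min. By 55 min the subunits had regained a median of 30.8% of their fall on the log2 scale, from 14.9% for RPA190 to 56.8% for RPC19. From 15 to 35 min 7 of the 42 members rose and TFC7 fell, where 7.57% of all probe sets rose and 5.54% fell. RPA12 rose by 1.61 (SE 0.39, adjusted p = 0.00597), RPC19 by 1.42, RPC53 by 1.01, RPC17 by 0.98, RPC10 by 0.79, RPC11 by 0.71 and RET1 by 0.70, while RPA190 changed by -0.21 without passing. From 35 to 55 min no member passed in limma, where 0.226% of all probe sets rose and 0.295% fell. At an unadjusted p under 0.05 there were 15 members, beside 13.7% of all probe sets. Compared with 0 min, 35 members were lower and 3 higher at 35 min (35.9% and 36.7% of all probe sets), and 32 were lower and 2 higher at 55 min (35.2% and 36%). All 24 subunits were among the lower ones at both times. Without WT replicate 2, 1 member instead of 3 was higher at 35 min.

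RRN5 and RRN10 followed other courses in WT. RRN5, at -0.58 at 15 min, reached -1.22 at 35 min and -1.58 at 55 min. RRN10 stood 0.49, 0.67 and 0.88 above its level at 0 min at the 3 later times, and passed the test at each.

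The second question was whether the eco1-W216G mutation changed the level of the machinery before starvation. At 0 min 4 members were lower than in WT and none was higher (11.9% of all probe sets were lower and 13.7% higher). They were RRN6 (-0.70, SE 0.22, adjusted p = 0.0201), RRN9 (-0.52, SE 0.18), RPO26 (-0.43, SE 0.16) and MAF1 (-0.42, SE 0.15), whose adjusted p-values ran up to 0.0479. At an unadjusted p under 0.05 there were 11 members, all of them lower, beside 37.1% of all probe sets in either direction. RRN6 measured 9.72, 9.97 and 9.94 in the mutant and 10.39, 10.75 and 10.57 in WT, and RRN9 measured 10.09, 10.16 and 9.98 against 10.49, 10.51 and 10.78, so that neither pair of groups overlapped. The median difference of all members was -0.31, that of all probe sets -0.08, and 18 members had all mutant arrays below all WT arrays (27.9% of all probe sets). Residuals of same-numbered arrays of eco1-W216G and WT correlated at 0.283, 0.31 and 0.186 at this time, and with the replicate number as a block 8 members were lower, RPB10 and PZF1 among them. The calls are fragile, since none was left without WT replicate 2, WT replicate 3 or eco1-W216G replicate 1, 1 was left without eco1-W216G replicate 3, and 11 were made without scc2-D730V replicate 1.

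After 15 min of starvation the level in eco1-W216G exceeded that of WT for all 24 subunits, from 1.43-fold for RPB10 to at least 9.37-fold for RPA49, and for 6 factors. A further 4 factors were lower. With 30 members higher and 4 lower, the shares stand beside 18.8% and 22.7% of all probe sets. The mutant arrays lay entirely above the WT arrays for 29 members and entirely below for 6 (24% and 32.7% of all probe sets). Without WT replicate 2, 2 members instead of 4 were lower.

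The median difference between eco1-W216G and WT at 15 min was 2.74 for Pol I subunits, 2.20 for the pair shared with Pol III, 1.60 for Pol III subunits and 0.94 for subunits of all polymerases. It was 0.47 for Pol I factors and -0.30 for Pol III factors, beside -0.08 for all probe sets. The value for Pol I factors was 0.13 after a second quantile normalization and turned to -0.11 without the dim probe sets. The 7 subunits of Pol II alone had a median of 0.07, from -0.29 for RPB4 to 0.42 for RPB3, and 1 of them was higher. Of 19 general factors of Pol II, 3 were higher and 1 lower, with a median of 0.01. The differences between these medians were not tested. The Pol I median was the value of RPA43, which lay below the STE3 mean in WT at 15 min. So did RPC17, RPC25, RPC31, RPC37 and RPC53 of Pol III. The sizes of the Pol I and Pol III medians are therefore not established.

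RPA49 shows the pattern for Pol I. At 15 min it measured 11.36, 10.43 and 11.14 in eco1-W216G and 7.57, 7.79 and 7.88 in WT, so that every mutant array was above every WT array. The difference was 3.23 (SE 0.53, adjusted p = 2.47e-05). RPA43 was higher by 2.74, with 9.40, 8.20 and 9.19 against 6.64, 5.66 and 6.28, and RPA14 by 0.82, with 12.45, 12.12 and 12.24 against 11.29, 11.58 and 11.50. The remaining members of the class were higher by between 2.13 for RPA190 and 3.18 for RPA12.

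For Pol III, RPC31 had the largest measured difference and RPC11 the smallest. RPC31 measured 9.16, 8.42 and 9.18 in the mutant against 6.50, 5.54 and 6.08, a difference of 2.88 (SE 0.37, adjusted p = 1.32e-06). RPC11 measured 11.54, 11.04 and 11.08 against 10.30, 9.96 and 10, a difference of 1.13 (SE 0.24, adjusted p = 0.00042). RPC17, with 9.0, 8.34 and 8.30 against 6.97, 6.63 and 7.12, was higher by 1.64. None of these groups overlapped. RPC53 was higher by 2.43 and RPC25 by 2.01, and RPO31, RPC34, RPC37, RET1 and RPC82 by between 1.42 and 1.61.

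The shared subunits were higher as well. RPC19 measured 12.01, 11.09 and 11.40 against 8.80, 8.36 and 8.79, 7.22-fold higher (log2 difference 2.85, SE 0.43, adjusted p = 8.63e-06). RPC40 measured 11.70, 11.11 and 11.66 against 10.17, 9.52 and 10.14, 2.92-fold higher. Among subunits of all polymerases, RPC10 had the largest difference (1.49, SE 0.22), with 12.23, 11.69 and 11.92 against 10.46, 10.43 and 10.49. RPO26, with 12.04, 11.69 and 11.98 against 11.09, 11.14 and 11.11, was higher by 0.79, and RPB10, with 12.31, 11.85 and 11.89 against 11.55, 11.66 and 11.31, by 0.51 (SE 0.14, adjusted p = 0.00513). The difference of RPB10 missed the threshold without WT replicate 3 or without eco1-W216G replicate 1, with adjusted p = 0.0578 and 0.081.

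The factors did not follow as a body. RRN11 was higher in the mutant by 2.40 (SE 0.53, adjusted p = 0.000716), with 8.86, 8.18 and 9.64 against 6.08, 6.37 and 7.01, and RRN3 by 1.11 (SE 0.26, adjusted p = 0.000948), with 10.12, 10 and 10 against 9.17, 8.71 and 8.90. UAF30 and RRN7 were higher by 0.71 and 0.67, BRF1 by 0.57, and PZF1 by 0.47 (adjusted p = 0.0358), the last with 9.39, 8.96 and 9.41 against 9.02, 8.58 and 8.77, where 1 mutant array lay below the highest WT array. RRN6, RRN9 and TFC4 measured 0.27, -0.11 and -0.03 and did not pass. TFC4, a subunit of TFIIIC that contacts TFIIIB, gave 10.30, 10.40 and 10.68 against 10.33, 10.62 and 10.50, and the groups overlapped. RRN6 gave 8.95, 8.85 and 9.55 against 8.64, 8.68 and 9.22, and RRN9 gave 10.19, 9.76 and 10.03 against 10.29, 10.03 and 9.99, both with overlap. The call of PZF1 was lost without WT replicate 2 or 3, or without eco1-W216G replicate 1 or 3, or without scc2-D730V replicate 3, with adjusted p-values between 0.0506 and 0.163. It was also lost with only the arrays compared (adjusted p = 0.0539) and after a second quantile normalization, where PZF1 differed by 0.25 (adjusted p = 0.241).

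MAF1 was the member most reduced in the mutant. At 15 min it measured 11.43, 11.49 and 11.16 in eco1-W216G and 12.43, 12.58 and 12.18 in WT, with no overlap (log2 difference -1.04, SE 0.15, adjusted p = 6.54e-06). Within eco1-W216G its level hardly moved, from 11.42, 11.40 and 11.17 at 0 min, and the change of 0.03 (95% interval -0.28 to 0.35) did not pass. TFC7, TFC3 and TFC8 of TFIIIC were lower as well (log2 differences -0.89, -0.48 and -0.44).

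**Figure D2:**
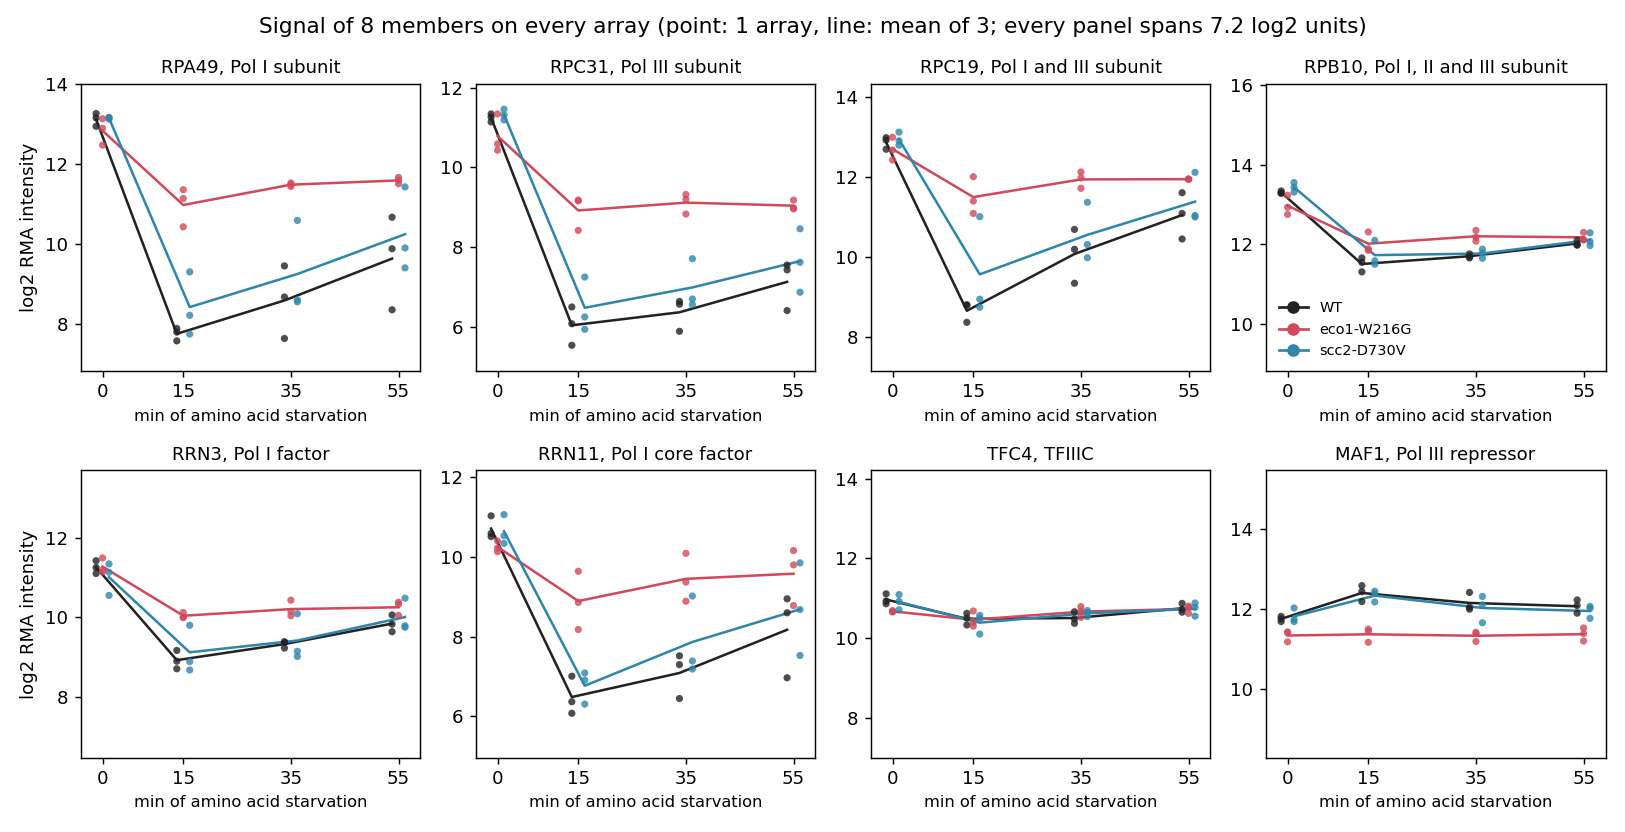
log2 intensity of 8 members (vertical axes, all spanning the same number of units) against minutes of starvation (horizontal axes), with 1 point for each array and lines through the means of 3 arrays. RPA49, RPC31, RPC19 and RRN11 fall in every strain but stay higher in eco1-W216G, where the arrays of RPA49 at 55 min measured 11.60, 11.51 and 11.67, and MAF1 stays between 11.16 and 11.52 in eco1-W216G.

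The third question was whether the response itself differed, which was tested as the change in eco1-W216G minus the change in WT. From 0 to 15 min the subunits of eco1-W216G changed in the same direction as in WT, but by a median of 40.6% of the WT change on the log2 scale, from 28.5% for RPC19 to 55.8% for RPC34. Every one of the 24 fell, and every one fell less than in WT. The latter also held in scc2-D730V, at 76.9% to 98% of the WT change. The difference between the changes passed for all 24 subunits and for 6 factors, 30 members higher in all, and 2 members were lower, TFC7 (-0.64) and MAF1 (-0.62, SE 0.22, adjusted p = 0.026). Of all probe sets 17.4% were higher and 18.1% lower. The 2 lower calls were lost without WT replicate 1 or eco1-W216G replicate 1, and 1 was lost without WT replicate 2 or 3 or eco1-W216G replicate 2 or 3. With each replicate left out in turn, 27 to 30 members were higher. The call of RPA14 was lost without WT replicate 1 or eco1-W216G replicate 1 (limma, adjusted p = 0.0506 and 0.0508). Those of RRN3 and RRN6 were lost without WT replicate 2 or eco1-W216G replicate 1 or 3 (adjusted p from 0.0511 to 0.106). That of PZF1 was lost without eco1-W216G replicate 3 (adjusted p = 0.0799).

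The values of the 2 strains come from separate arrays and can be set side by side. RPA49 changed by -5.38 in WT and by -1.86 in eco1-W216G, from 12.90, 13.14 and 12.48 to 11.36, 10.43 and 11.14 in the mutant, and the difference between the changes was 3.52 (SE 0.75, adjusted p = 0.000555). The changes in WT and in eco1-W216G were -5.21 and -1.87 for RPC31, -4.23 and -1.21 for RPC19, -1.80 and -0.95 for RPB10, -4.22 and -1.36 for RRN11, and -2.33 and -1.23 for RRN3. Across the 42 members the WT change and the eco1-W216G change had a Pearson correlation of 0.95 (Spearman 0.953), a description over genes that share arrays and are not independent.

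**Figure D3:**
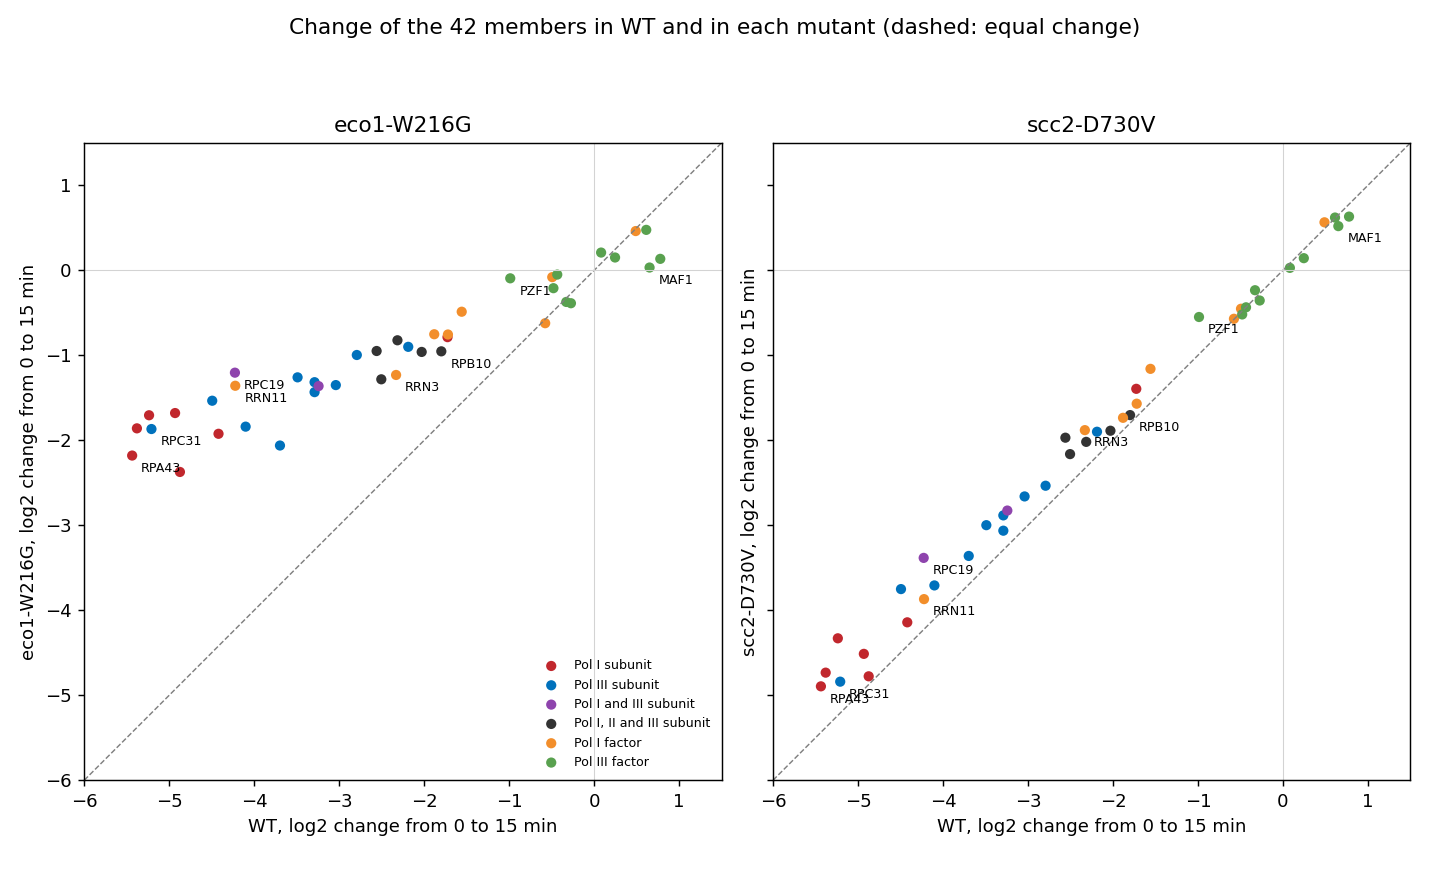
log2 change of each of the 42 members from 0 to 15 min in WT (horizontal axes) and in eco1-W216G (left, vertical axis) or scc2-D730V (right, vertical axis), coloured by role, with a dashed line at equal change. The subunits of eco1-W216G lie above it, at a median of 40.6% of the WT change. Those of scc2-D730V also lie above it but closer, at 87.8%.

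Within eco1-W216G 30 members fell and 2 rose from 0 to 15 min (26.8% and 23.4% of all probe sets), 27 were lower and 1 higher at 35 min (26.4% and 23.3%), and 23 were lower and 1 higher at 55 min (25.6% and 23.6%). TFC3 was the member that was higher at all 3 times, by 0.47, 0.58 and 0.55. From 15 to 35 min and from 35 to 55 min no member passed in limma, and none had an unadjusted p under 0.05 (from 15 to 35 min 0% of all probe sets rose and 0.0347% fell, and later 0% in either direction). The counts against 0 min rest on few arrays. Without eco1-W216G replicate 2 they were 18, 12 and 11 lower at the 3 times, and without eco1-W216G replicate 1 they were 16 and 13 lower at 35 and 55 min. The 2 members higher at 15 min became 0 without eco1-W216G replicate 3 and 1 without replicate 1 or 2, and without scc2-D730V replicate 1 the counts higher at 35 and 55 min were 2.

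The median difference of the 24 subunits from WT was 1.60 at 15 min, 1.49 at 35 min and 0.95 at 55 min. At 35 min 29 members were higher and 4 lower than in WT (19.9% and 26.6% of all probe sets), and the median over all 7 Pol I subunits was again 2.74. RPA43 measured 3.23, with 9.28, 9.69 and 9.87 against 6.87, 5.82 and 6.46. These WT values lie below 7.75, the STE3 mean in WT at 15 min, so the size of this difference is not established. At 55 min 20 members were higher and 5 lower (16.8% and 21%), and the medians were 1.96 for Pol I subunits and 0.95 for Pol III subunits. All 7 Pol I subunits passed at 55 min, from 0.63 for RPA14 to 2.12 for RPA190, as did 6 of 10 Pol III subunits, RPC40 and, among subunits of all polymerases, RPB5 and RPB8. RPC11 and RPC17 differed from WT by 0.08 and 0.28 at 55 min and did not pass.

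WT arrays spread widely by then. RPA49 measured 11.60, 11.51 and 11.67 in eco1-W216G at 55 min and 10.67, 8.35 and 9.88 in WT, where replicate 2 was lowest, and the groups did not overlap (log2 difference 1.96, SE 0.53, adjusted p = 0.00479). RPC31 measured 8.96, 8.98 and 9.18 against 7.55, 6.41 and 7.43, also apart, with the WT values below the STE3 mean of 7.75 in WT at 15 min. RPC19 measured 11.95 on each of the 3 mutant arrays and 11.61, 10.45 and 11.09 in WT, a difference of 0.90 that did not pass (adjusted p = 0.101). Without WT replicate 2 only 10 members were higher at 55 min. Without WT replicate 1 or without eco1-W216G replicate 3 there were 3 lower at 55 min, and without eco1-W216G replicate 1 there were 2 lower at 35 min. The difference between the changes was higher for 29 members at 35 min and for 20 at 55 min (19.8% and 15.6% of all probe sets), and lower for none at either time (21.7% and 17.1%). In the lower direction only RRN10 had an unadjusted p under 0.05, at 55 min (-0.50). For 55 min the count of higher members was 9 without WT replicate 2 and 11 without eco1-W216G replicate 3.

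MAF1 stayed low in eco1-W216G. At 55 min it measured 11.38, 11.52 and 11.19 in the mutant and 12.08, 12.22 and 11.89 in WT (log2 difference -0.70, SE 0.15, adjusted p = 0.000786), and MAF1, TFC7 and TFC8 were lower than in WT at 15, 35 and 55 min. TFC6 was lower at 35 and 55 min, with differences of -0.72 and -0.53, and RRN10 at 55 min with -0.59. RRN5, which had reached -1.58 in WT by then, was higher in the mutant by 0.65.

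In scc2-D730V no member differed from WT by the test. At 0 min the differences of the 42 members ran from -0.25 for RRN3 to 0.15 for UAF30, with a median of -0.03. At 15, 35 and 55 min the medians of the 24 subunits were 0.36, 0.41 and 0.33 above WT. No member passed in limma at any time, with all adjusted p-values at 1, beside 0% of all probe sets higher and 0.0347% lower at each time. At an unadjusted p under 0.05 there were 0, 4, 1 and 0 members at 0, 15, 35 and 55 min, beside 1.68%, 3%, 1.21% and 0.347% of all probe sets. The arrays lay entirely above those of WT for 0, 6, 2 and 1 members (1.77%, 5.19%, 2.34% and 1.11% of all probe sets).

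The size of the difference from WT depended on replicate 1 of scc2-D730V. WT replicate 1 was also the highest WT array for 22 of 24 subunits at 35 min and at 55 min. Residuals of the arrays numbered 1 in scc2-D730V and WT correlated at 0.586, 0.735 and 0.727 at 15, 35 and 55 min. The median of the Pol I subunits in scc2-D730V was 9.30, 8.24 and 8.51 after 15 min. After 35 min it was 10.59, 9.15 and 9.10, and after 55 min 11.43, 9.45 and 9.90, with replicate 1 the highest each time. The WT values were 8.04, 7.82 and 8.35 after 15 min, 9.45, 8.42 and 9.05 after 35 min, and 10.67, 8.75 and 9.88 after 55 min. Each scc2-D730V array thus lay above the WT array of the same number at these times. Without scc2-D730V replicate 1, but with WT replicate 1 kept, the medians of all 24 subunits above WT were 0.13, 0.08 and 0.03. A model that pairs arrays within each time was not run. RPA12 had the largest difference of any member at 15 min, 1.01 (95% interval 0.21 to 1.81), with 9.90, 8.24 and 8.27 against 7.58, 7.82 and 7.99 in WT. The interval for RPC31 was -0.33 to 1.21 and that for MAF1 was -0.38 to 0.25, and these arrays do not exclude differences within these intervals.

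From 15 to 35 min 1 member of scc2-D730V rose, RET1, and TFC7 fell (4.93% and 3.75% of all probe sets), and from 35 to 55 min none passed in limma (0.104% and 0.208%). At an unadjusted p under 0.05 there were then 11 members, beside 11.5% of all probe sets. The response to starvation in scc2-D730V was close to that of WT. Of the 42 members, 34 fell and 4 rose by 15 min (34.8% and 36.4% of all probe sets), and 32 were lower and 2 higher at 35 min (33.6% and 36.7%) and at 55 min (32.8% and 35.9%). All 24 subunits fell at each time, by a median of 87.8%, 86.8% and 84.5% of the WT change. The fall was smaller than in WT for all 24 at 15 min and for 22 at 35 and at 55 min. No difference between the change in scc2-D730V and that in WT passed in limma for any member at any time, none had an unadjusted p under 0.05, and 0% of all probe sets passed in either direction.

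**Figure D4:**
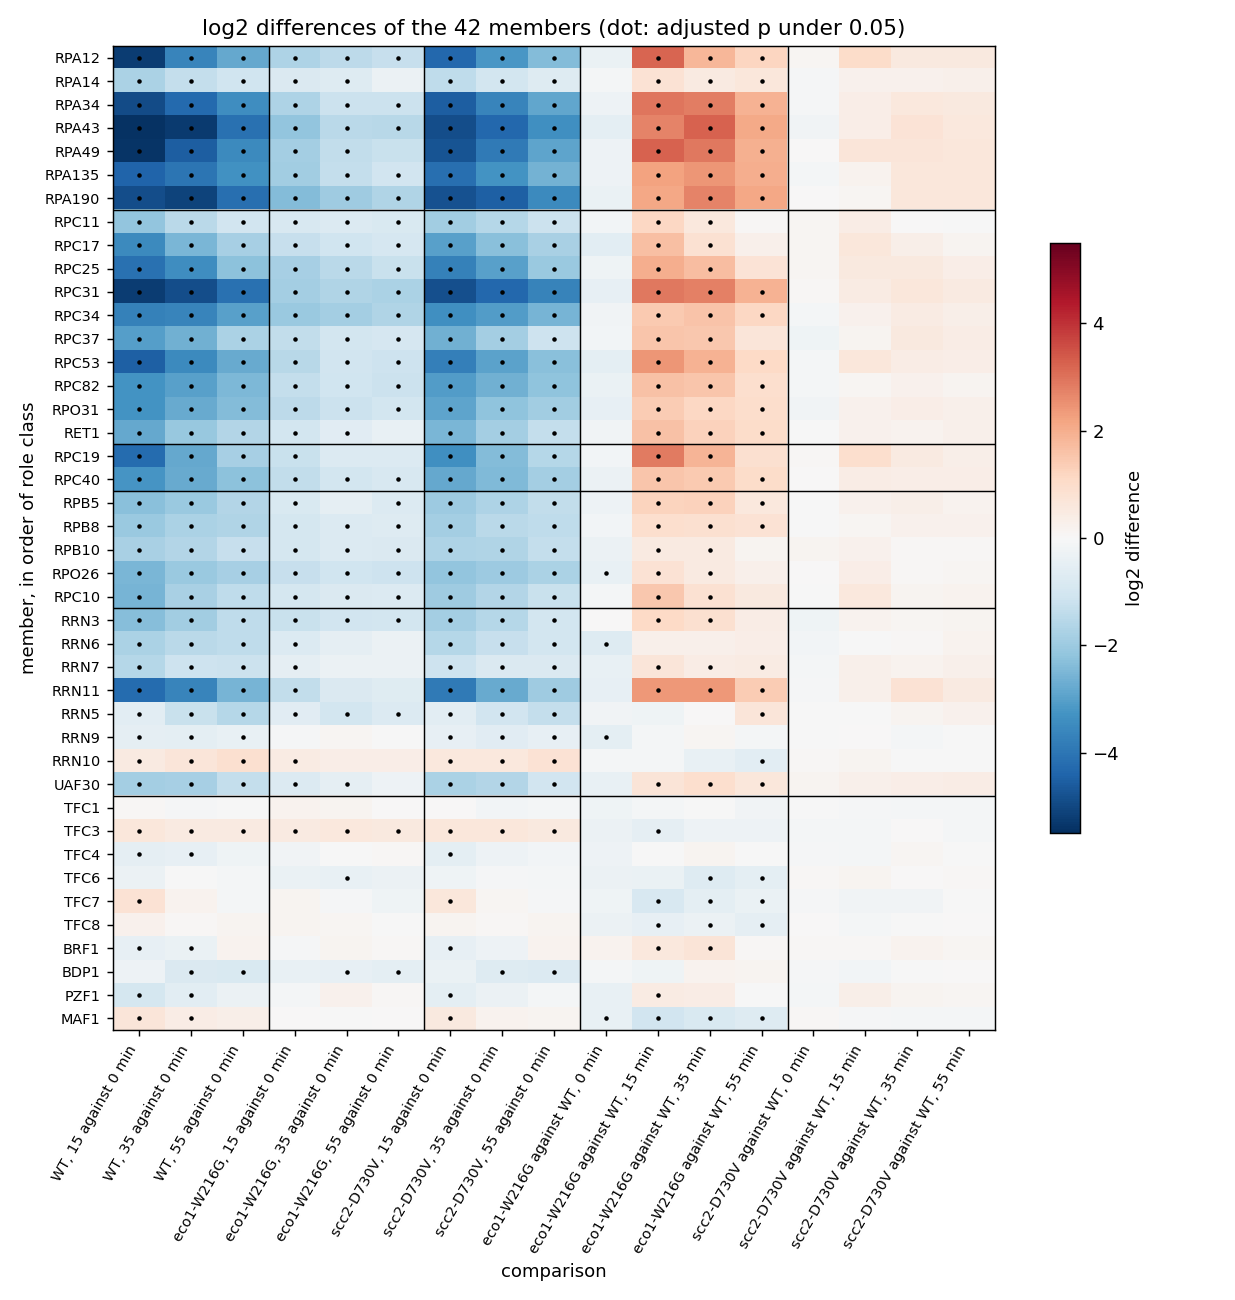
log2 differences of the 42 members (rows, ordered by role class and divided by lines) in 17 comparisons (columns), from blue for lower to red for higher, with a dot where the adjusted p was under 0.05. The 24 subunits, in the upper 4 blocks, are blue and dotted in every starved group of WT and scc2-D730V and red and dotted in eco1-W216G against WT at 15 min, and the columns of scc2-D730V against WT hold no dot.

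Genes listed as regulators of Pol I, of Pol III or of ribosome production, without being part of either enzyme, were counted as a further comparison. Of 8 regulators (HMO1, SCH9, SFP1, NET1 and the 4 casein kinase II genes CKA1, CKA2, CKB1 and CKB2), 6 fell in WT by 15 min, with a median of -0.49. Of all probe sets 36.4% fell. NET1, a nucleolar protein that stimulates Pol I, fell by 1.94 and was the only one of the 8 to exceed WT in eco1-W216G at that time, by 0.82. Of all probe sets 18.8% were higher in that comparison. The changes of the other 5 that fell ran from -0.94 for CKA2 to -0.40 for CKB2. The TATA-binding protein SPT15, which all the polymerases use, is among the general factors of Pol II above.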

How the data were processed

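Total RNA was extracted with hot acid phenol, and the authors amplified and biotin-labelled it, hybridized it to Affymetrix Yeast Genome 2.0 arrays and summarized the scans with RMA (version not given in the sources used here), which corrects background, equalizes the distributions of the arrays and combines the probes of a probe set. The deposited intensity values were linear, from 17.3 to 43883, where log2 values had been assumed, and log2 was taken first. Since arrays share a distribution, all levels are relative. Their number, 3 for each group, limits the precision. From 5814 probe sets 51 controls were left out. A linear model with 12 coefficients was fitted to the 36 arrays in limma 3.58.1 (R 4.3.3) with moderated variances (24 residual and 3.71 prior degrees of freedom), and p-values were adjusted by the Benjamini-Hochberg method over 5763 probe sets within each comparison, with 0.05 as threshold. SE and 95% intervals come from this model. The fit was tested on simulated data. Deposited symbols come from the platform annotation. No sequences were used here.

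The members and gene lists were chosen with earlier results of these data known. Values on each array are given for the members of each role class with the largest and the smallest difference between eco1-W216G and WT at 15 min, the largest change in WT, the largest difference at 0 min, and for RRN3 and MAF1. Other members with values on each array were chosen after their values were seen. Alternatives were array weights, median centring, a second quantile normalization, stricter thresholds, removal of dim probe sets, a variance trend, blocks for replicate number and culture, only the arrays compared, and leaving out each replicate.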

Additional observations from a re-analysis of the deposited data

Results flagged for a closer look

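The change from 0 to 15 min differed between eco1-W216G and WT, by a test of the difference itself, for 30 members in the higher direction and 2 in the lower, and for 29 and 20 in the higher direction at 35 and 55 min. Among the subunits of Pol I the log2 difference between the changes was 0.94 for RPA14, 3.25 for RPA43 and 3.52 for RPA49. For Pol III it was 1.29 for RPC11, 2.23 for RPC17 and 3.34 for RPC31. RPC19 and RPC40, shared by both, gave 3.02 and 1.88, and RPB10, RPO26 and RPC10, present in all polymerases, gave 0.85, 1.22 and 1.61. Among the factors the values were 1.10 for RRN3, 0.96 for RRN6, 2.86 for RRN11, 0.89 for PZF1 and -0.62 for MAF1. MAF1, the repressor of Pol III, was the only one of these named genes with a difference in the lower direction, and TFC7, not named here, was the other lower member. The call of MAF1 was lost without WT replicate 1 or 2 or eco1-W216G replicate 1 or 3 (limma, adjusted p from 0.0674 to 0.0994). Those of RPA14, RRN3, RRN6 and PZF1 were also lost without certain replicates, as given above. After a second quantile normalization RRN6 gave 0.75 and did not pass (limma, adjusted p = 0.0534). At an adjusted p under 0.01 RRN3, RRN6 and MAF1 did not pass.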

How the results depend on the processing

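The falls of all 24 subunits in WT and their higher level in eco1-W216G at 15 min rest on 3 arrays a group. Residuals of same-numbered arrays correlated above 0.1 in 21 of 24 strain pairs and 17 of 27 time pairs. All strain pairs at 0 and 15 min were above 0.1. The exceptions were replicates 2 and 3 of eco1-W216G and WT at 35 min (-0.077 and -0.143) and replicate 3 of scc2-D730V and WT at 55 min (0.007). Between scc2-D730V and WT the correlation reached 0.84. The replicate number was left out of the model, so the tests against WT ignore this pairing. The replicate block gave each number a single shift over all strains and times, not a shift within each time. With a replicate block 8 members instead of 4 were lower in eco1-W216G than in WT at 0 min, and 2 instead of 1 were higher in eco1-W216G at 35 and at 55 min, and no other count moved by over 1.5 times. The mean over probe sets was not run, since each gene had 1.

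At an adjusted p under 0.01, eco1-W216G against WT gave 0 lower at 0 min, 2 lower at 15 min, and 13 higher and 3 lower at 55 min, eco1-W216G had 0 higher at 15 min, and 0 members had a lower change at 15 min. A fold of 1.4 left 2 lower at 0 and 15 min and 0 higher in eco1-W216G at 15 min. With array weights, whose estimation gave a convergence warning, 12 were lower at 0 min, 3 and 2 were higher in eco1-W216G at 35 and 55 min, the change was lower for 1 member at 35 and 55 min and higher for 32 at 55 min, the Pol III factor median in WT at 35 min was -0.15, and RRN3 at 0 min turned to -0.071. Median centring, a culture block and a second quantile normalization each gave 2 higher in eco1-W216G at 35 and 55 min. TFC4 in eco1-W216G against WT at 15 min turned to 0.035 and 0.013 under the first and last. The last also gave 7 lower at 15 min and medians of 0.13 for Pol I factors and -0.42 for Pol III factors. With only the arrays compared, 8 were lower at 0 min and 1 was higher in eco1-W216G at 15 min.

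Without the lowest 25% of probe sets, 28 members remained. At 15, 35 and 55 min 21, 21 and 19 fell in WT, 19, 17 and 15 in eco1-W216G and 21, 20 and 19 in scc2-D730V, 19, 19 and 12 exceeded WT in eco1-W216G, and 18, 17 and 13 had a higher change. Pol I factor medians were -0.49, -0.52 and -0.42 in WT, -0.081, 0.096 and -0.004 in eco1-W216G, and -0.097, -0.109, 0.094 and -0.108 in eco1-W216G against WT from 0 to 55 min, reversed at 15 and 55 min and within eco1-W216G at 35 min. Pol III factor medians were 0.163 and 0.068 in WT at 15 and 55 min and -0.29 against WT at 35 min, and Pol III subunit medians in WT were -3.04, -2.44 and -2.0.

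With each replicate left out in turn, eco1-W216G against WT gave 0 to 11 lower at 0 min, 2 to 4 at 15 min, 2 to 5 at 35 min and 3 to 5 at 55 min, and 10 to 25 higher at 55 min. WT had 1 to 3 higher at 35 min. In eco1-W216G 0 to 2, 1 to 2 and 1 to 2 were higher and 18 to 32, 12 to 31 and 11 to 27 lower at 15, 35 and 55 min. The change was lower for 0 to 2 at 15 min and higher for 9 to 27 at 55 min. Medians at 55 min in WT ran from -2.56 to -2.02 for Pol III subunits and from -1.75 to -1.35 for subunits of all polymerases, and in eco1-W216G at 15 min from -1.08 to -0.74 for the latter and from -0.05 to 0.14 for Pol III factors. The median of all subunits in scc2-D730V against WT ran from 0.13 to 0.61, 0.08 to 0.58 and 0.03 to 0.55 at 15, 35 and 55 min. In eco1-W216G against WT, TFC4 at 15 min ran from -0.133 to 0.053, above 0 without WT replicate 2 and eco1-W216G replicates 1 and 2, RRN9 at 15 min from -0.208 to 0.008, above 0 without eco1-W216G replicate 2, and RRN3 at 0 min from -0.093 to 0.099, below 0 without WT replicate 3 and eco1-W216G replicate 2. The cause of these changes was not tested.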

Other observations

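The arrays carry 17 probe sets for ribosomal RNA, the product of Pol I and Pol III. Their median log2 intensity was 9.74, 9.86 and 10.80 in WT at 0 min and 7.63, 6.76 and 7.45 at 55 min. In eco1-W216G it was 8.73, 8.81 and 8.49 at 0 min, below all WT arrays, and 7.45, 7.75 and 7.98 at 55 min. In scc2-D730V it was 10.17, 8.91 and 8.32 at 0 min and 7.82, 6.32 and 9.13 at 55 min, with wide spread. The median log2 difference between eco1-W216G and WT was -1.70, -0.85, 0.60 and 0.80 at 0, 15, 35 and 55 min. In limma over all 5814 probe sets, controls included, 9 of the 17 were lower at 0 min and 1 at 15 min. At 35 and at 55 min 2 were higher. Without controls, 11.9% and 22.7% of probe sets were lower at 0 and 15 min, and 19.9% and 16.8% higher at 35 and 55 min. The labelling starts from polyadenylated RNA, so the probe sets do not measure the bulk of ribosomal RNA.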
